A study of Mus musculus with 9 samples.

Results

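Bcmo1, Agpat9, Erlin1, Etv1, Zfp217 and Cnst are 6 genes, of 22161 rows in the table, that stood higher in mouse kidneys lacking both Pkd2 and Ift88 than in wild type kidneys. They were picked by symbol from that comparison, so their rise with both genes lost is a description here and was not tested. The question asked of them was which were also higher when Pkd2 alone was lost. All 6 had enough reads to be tested, as did 15740 rows in all (a mean of at least 10 normalized counts over the 9 libraries).

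Whole kidney RNA was taken from 9 C57BL/6 mice, 3 in each of 3 groups, at 10 weeks (postnatal day 70). The genotypes are given as wild type, as Pkd2fl/fl with Pax8rtTA and TetO-cre (Pkd2 knockout, KO below) and as the same with Ift88fl/fl added (double knockout, DKO). Every mouse, wild type included, drank 2 mg/ml doxycycline for 2 weeks from postnatal day 28. The labels do not say whether the wild type mice carried the transgenes, so effects of the transgenes cannot be told apart from those of the deletions. Pax8-rtTA acts in kidney tubules, so vessels, stroma and blood cells of these kidneys are not targeted. In whole tissue, fewer cells of a type and less RNA per cell cannot be told apart. Mouse names carry prefixes that differ within and between groups: WT 3 and KO 3 have a prefix of their own in their groups, and the DKO mice share another. What the prefixes stand for is not given, and no prefix is shared between groups, so it cannot be told apart from genotype.

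Pkd2 encodes polycystin-2, a cation channel of cilia and the endoplasmic reticulum whose loss from tubule cells gives polycystic kidneys, and Ift88 encodes an intraflagellar transport protein without which cilia are not built. The 6 genes do not belong to 1 pathway. Bcmo1 (now Bco1) encodes the enzyme that splits beta-carotene into retinal, and Agpat9 (now Gpat3) an acyltransferase of the endoplasmic reticulum that opens glycerolipid synthesis. Erlin1 encodes a membrane protein of the endoplasmic reticulum that, with Erlin2, hands activated inositol trisphosphate receptors to degradation and binds cholesterol. Etv1 is an ETS transcription factor of the PEA3 family, often downstream of ERK signalling. Zfp217 is a zinc finger protein found in LSD1-CoREST and CtBP corepressor complexes. Cnst encodes consortin, a trans-Golgi protein that sorts connexins to the cell surface.

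Start sites of 3 of the genes are shown because these are the 2 of largest rise with Pkd2 lost (Bcmo1, Agpat9) and the 1 that passed as higher in DKO than in KO kidneys (Cnst). Each sequence is the RefSeq gene-strand window of 300 bases around the listed start in build GRCm38.p6, at chr8:117095615-117095914, chr5:100845979-100846278 and chr1:179546279-179546578, all on the plus strand. Capitals mark matches, on either strand, to the DR1 element of nuclear receptor dimers (a direct repeat of AGGTCA with 1 base between the copies), TATAAA, CCGGAAGT (ETS), CCAAT or GGGCGG (GC box). A search for the cAMP element TGACGTCA, held by 1.79% of windows, matched none of the 6 genes.
Bcmo1: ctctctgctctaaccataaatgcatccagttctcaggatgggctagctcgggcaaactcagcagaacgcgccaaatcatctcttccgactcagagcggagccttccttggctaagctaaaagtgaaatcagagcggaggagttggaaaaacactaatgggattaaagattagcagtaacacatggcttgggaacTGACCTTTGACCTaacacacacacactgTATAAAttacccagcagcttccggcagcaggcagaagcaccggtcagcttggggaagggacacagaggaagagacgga
Agpat9: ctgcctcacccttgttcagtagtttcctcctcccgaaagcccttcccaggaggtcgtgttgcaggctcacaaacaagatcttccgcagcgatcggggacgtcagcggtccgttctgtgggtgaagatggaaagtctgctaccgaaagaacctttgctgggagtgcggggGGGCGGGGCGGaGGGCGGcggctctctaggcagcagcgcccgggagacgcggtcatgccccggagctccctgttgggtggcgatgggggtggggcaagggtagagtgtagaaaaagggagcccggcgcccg
Cnst: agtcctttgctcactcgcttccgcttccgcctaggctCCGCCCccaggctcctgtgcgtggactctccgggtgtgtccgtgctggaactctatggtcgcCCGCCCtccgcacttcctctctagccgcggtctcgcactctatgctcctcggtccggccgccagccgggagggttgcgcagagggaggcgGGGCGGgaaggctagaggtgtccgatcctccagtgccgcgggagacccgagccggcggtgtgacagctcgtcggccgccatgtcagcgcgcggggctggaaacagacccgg
The 3 windows differ in make-up. Bcmo1 has a DR1 match on the minus strand from base -56 to -44 and a TATAAA match starting at base -28. Of 32851 windows of this length, 13 (0.0396%) hold a DR1 match and 13.6% a TATAAA match. The DR1 match contains 2 AGGTCA half-sites, and 16.3% of windows hold at least 1 half-site. Agpat9 has 3 GC boxes between bases -81 and -64, the leading 2 sharing a base, and Cnst has 3 spread out, while 35.7% of windows hold at least 1. GC content was 64.3% for Agpat9 and 69.7% for Cnst, above the median of 52.7% over all windows, and slightly under that median for Bcmo1. Windows were found for all 6 genes. RefSeq lists 3 starts for Erlin1 and 2 each for Etv1 and Zfp217, and their matches differ by start. Erlin1 had 3, 3 and 4 GC boxes and 1 CCAAT match at each start (37.4% of windows hold a CCAAT match). The Zfp217 start listed at the top had 1 ETS match (3.89% of windows), 2 GC boxes and 1 CCAAT match, and the other had 3 GC boxes and none of the rest. Of the Etv1 starts, 1 had no match and 1 had a TATAAA match. These are matches of letters only, and no measurement here bears on binding.

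The targeted genes were read in every library as a check of the labels. Pkd2 stood at 13768, 14013 and 14505 normalized counts in wild type, 4723, 5083 and 5549 in KO and 5181, 3777 and 5102 in DKO kidneys. It fell in KO against wild type (log2 fold change -1.46 ± 0.12, SE; limma adjusted p = 0.000973) and kept 36.3% of the wild type mean. That call was lost by edgeR on the 7 libraries without WT 1 and KO 1 (0.0581). Ift88 stood at 1132, 1067 and 1056 in wild type, 1121, 1086 and 1214 in KO and 735, 691 and 831 in DKO kidneys. It fell in DKO against KO (-0.60 ± 0.09; limma adjusted p = 0.0358), a call lost when WT 1, WT 2, KO 1, KO 2, DKO 1 or DKO 2 was left out (adjusted p from 0.0642 to 0.126). Part of both transcripts thus remained in whole kidney. Among the 3 DKO kidneys, DKO 2 had the lowest level of both. Libraries held 37056843 to 47314829 reads and normalized totals of 40454151 to 42874467.

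Of the 6 genes, 5 were also higher with Pkd2 lost alone: Bcmo1, Agpat9, Erlin1, Etv1 and Zfp217. Their mean levels in KO kidneys were 2.22, 2.02, 1.77, 1.65 and 1.34 times wild type, close to the 2.17, 2.10, 1.74, 1.66 and 1.37 times of DKO kidneys. Cnst behaved otherwise, at 1.05 times wild type in KO and 1.72 times in DKO kidneys. In all 5 the KO and wild type kidneys did not overlap, where 12.4% of all tested genes were higher without overlap. Over all tested genes, 1.14% passed the same test as higher in KO (180 genes; 2.4% in either direction). The KO comparison uses the wild type mice that also served to pick the 6 genes, so the count of 5 is not independent of the choice. On the 7 libraries without WT 1 and KO 1, which leave 2 mice in each of those groups, the 5 genes missed the threshold, with adjusted p from 0.0680 to 0.222 by limma and from 0.0826 to 0.220 by edgeR.

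Bcmo1 is the least abundant of the 6. It measured 86.4, 78.9 and 68.6 normalized counts in WT 1 to WT 3, 171, 150 and 199 in the KO kidneys and 186, 177 and 146 in the DKO kidneys (means 77.9 ± 8.93, 173 ± 24.3 and 170 ± 21.2, SD, n = 3). All 6 mutant kidneys lay above all wild type ones, and the lowest KO value was 1.74 times the highest wild type value. The log2 fold change in KO was 1.14 ± 0.17 (SE; 95% interval 0.76 to 1.52; limma adjusted p = 0.0130), on the log2(normalized count + 1) scale. It was lost as a call without WT 2 (adjusted p = 0.0612) or KO 1 (0.0553).

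Agpat9 measured 505, 585 and 543 in wild type, 964, 1142 and 1190 in KO and 975, 1273 and 1177 in DKO kidneys (544 ± 39.8, 1099 ± 119 and 1142 ± 152). The mutant groups overlapped each other, with replicate 1 the lowest in each, and neither overlapped wild type. Its log2 fold change in KO was 1.01 ± 0.12 (interval 0.73 to 1.28; limma adjusted p = 0.00545). Erlin1, the most abundant of the 6, measured 3398, 2848 and 3037 in wild type, 5403, 5433 and 5564 in KO and 5382, 4794 and 5936 in DKO kidneys. The SD was 85.5 on a mean of 5467 in KO kidneys and 571 on a mean of 5371 in DKO kidneys. The log2 fold change of Erlin1 in KO was 0.82 ± 0.09 (interval 0.62 to 1.03; limma adjusted p = 0.00425). Agpat9 and Erlin1 kept their calls in all 9 fits that left out 1 library each, with adjusted p of at most 0.0364 and 0.0250.

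The transcription factor Etv1 measured 802, 969 and 885 in wild type, 1506, 1524 and 1355 in KO and 1604, 1264 and 1535 in DKO kidneys. No mutant kidney overlapped wild type, and DKO 2 was the lowest of the mutants. Its log2 fold change in KO was 0.72 ± 0.11 (interval 0.48 to 0.97; limma adjusted p = 0.0155), and the call was lost without WT 1 (0.0659), KO 1 (0.0683) or KO 2 (0.0702). Zfp217 had the smallest rise of the 5. It measured 1086, 1027 and 1012 in wild type, 1406, 1426 and 1348 in KO and 1494, 1386 and 1400 in DKO kidneys. The lowest KO value was 1.24 times the highest wild type value. In KO the log2 fold change was 0.42 ± 0.07 (interval 0.27 to 0.57; limma adjusted p = 0.0175), lost as a call without WT 1 (0.0550), WT 2 (0.0819), KO 1 (0.0824) or KO 2 (0.0878).

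**Figure D1:**
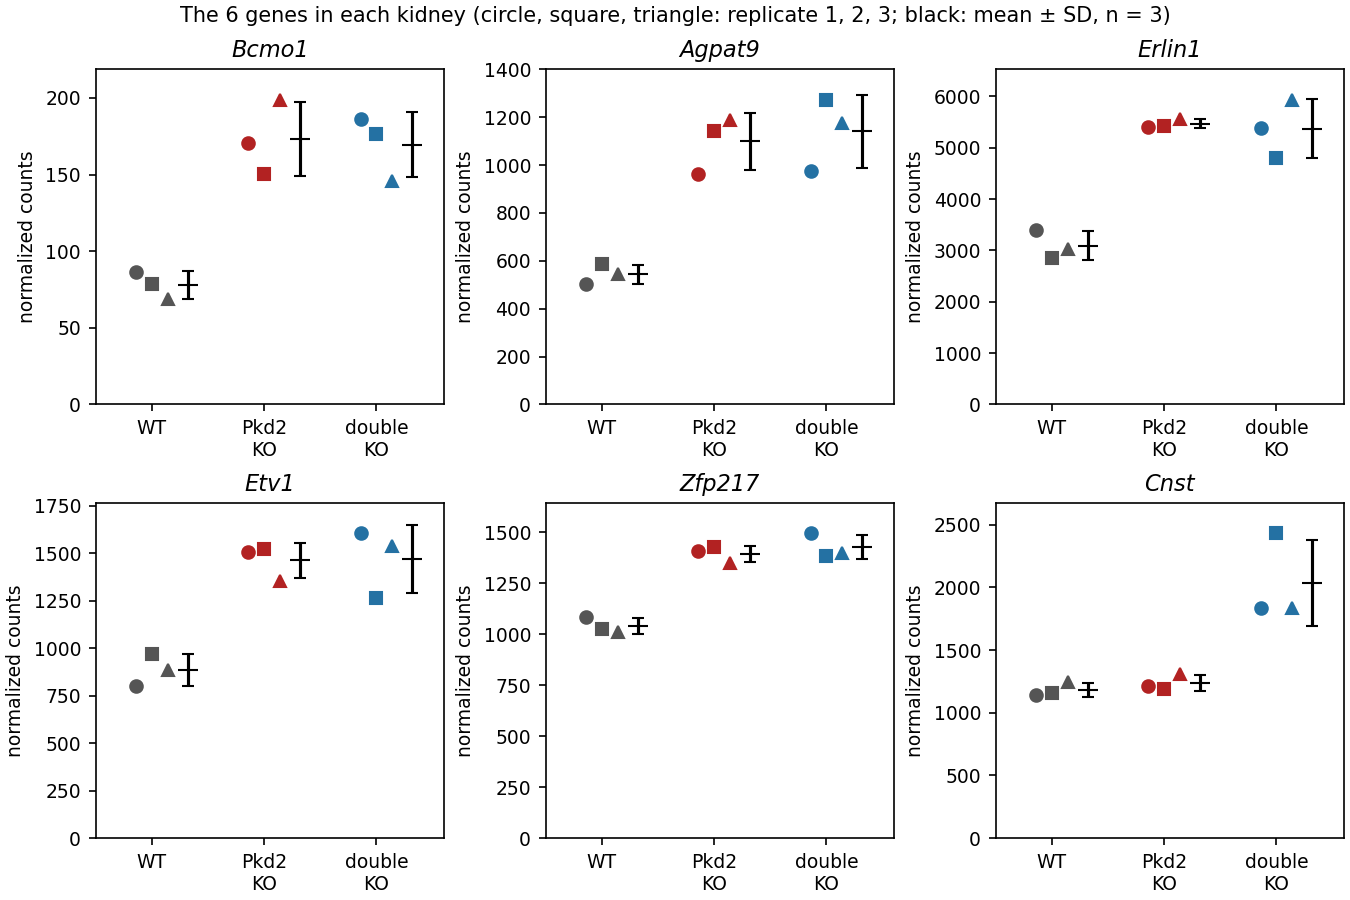
Normalized counts of the 6 genes in each kidney (vertical axes start at 0), with wild type in grey, Pkd2 knockout in red and double knockout in blue; circles, squares and triangles are replicates 1, 2 and 3, and black bars give the mean ± SD of 3 mice. Both mutant groups lie above wild type in 5 panels, whereas Cnst is high in double knockout kidneys only, at 1833 to 2430.

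The added loss of Ift88 moved none of these 5 genes past the test. For DKO against KO the log2 fold changes were -0.03 for Bcmo1 (95% interval -0.41 to 0.35), 0.05 for Agpat9 (-0.22 to 0.33), -0.03 for Erlin1 (-0.24 to 0.18), 0.00 for Etv1 (-0.25 to 0.25) and 0.03 for Zfp217 (-0.12 to 0.19). Limma's adjusted p was 0.925 or higher for each. Each interval ends short of the size of that gene's rise in KO, in both directions, and allows the smaller changes it spans, so the levels are not shown to be equal. In this comparison 0.127% of tested genes passed as higher (20 genes) and 0.394% in either direction, and 1 of the 6, Cnst, was among them. The DKO mice also served to pick the 6 genes, so neither the count of 1 nor these intervals are independent of the choice.

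Cnst measured 1143, 1158 and 1244 normalized counts in wild type, 1213, 1189 and 1307 in KO and 1837, 2430 and 1833 in DKO kidneys (1182 ± 54.5, 1236 ± 62.7 and 2033 ± 344). Wild type and KO kidneys overlapped, and each DKO kidney lay above all 6 of them, the lowest DKO value being 1.40 times the highest KO value. Against wild type the KO log2 fold change was 0.06 ± 0.11 (interval -0.19 to 0.32; limma adjusted p = 0.807). DKO against KO gave 0.71 ± 0.11 (interval 0.45 to 0.96; limma adjusted p = 0.0409), a ratio of means of 1.64. This comparison shares the DKO mice with the one that picked the genes. The call is close to the threshold: with all other libraries kept it held without KO 3 (0.0452) and was lost without any other 1, namely WT 1 (0.0762), WT 2 (0.0782), WT 3 (0.0504), KO 1 (0.146), KO 2 (0.164), DKO 1 (0.0854), DKO 2 (0.0785) or DKO 3 (0.0519). Its log2 fold change stayed between 0.57, without DKO 2, and 0.77 in these and all other fits tried. With edgeR on whole reads the adjusted p was 0.0400, and with DESeq2 it was 7.35e-06.

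**Figure D2:**
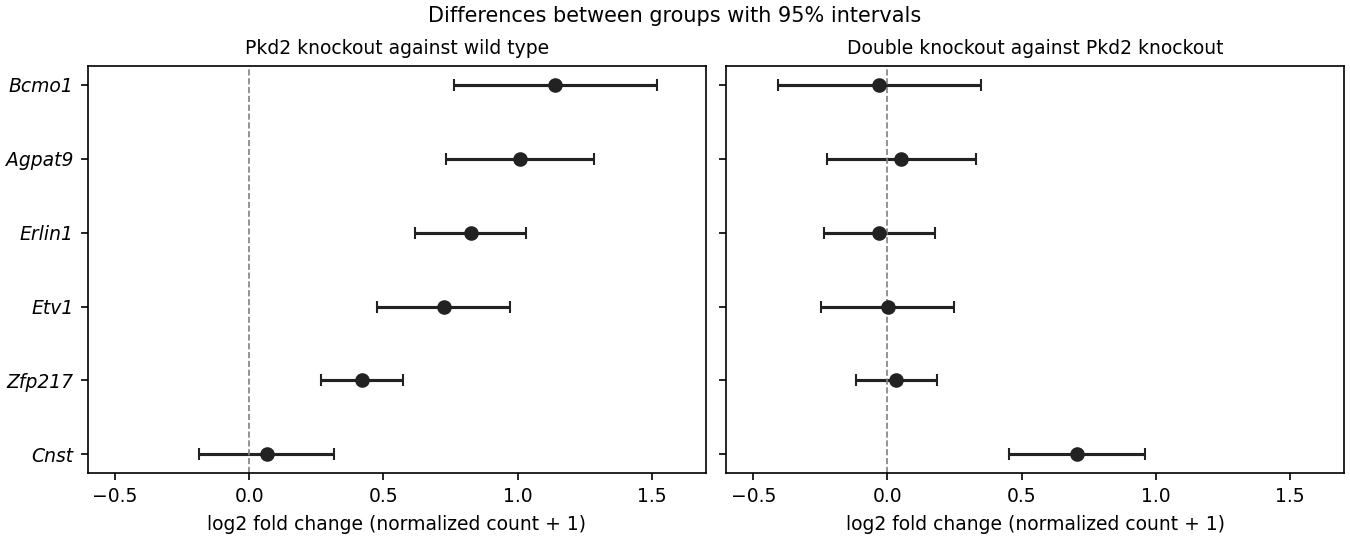
Log2 fold changes of the 6 genes on the log2(normalized count + 1) scale (horizontal axes), for Pkd2 knockout against wild type (left) and double knockout against Pkd2 knockout (right); points are limma estimates from 9 libraries and bars 95% intervals. The intervals of 5 genes lie above 0 on the left and span 0 on the right, and Cnst does the reverse.

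**Figure D3:**
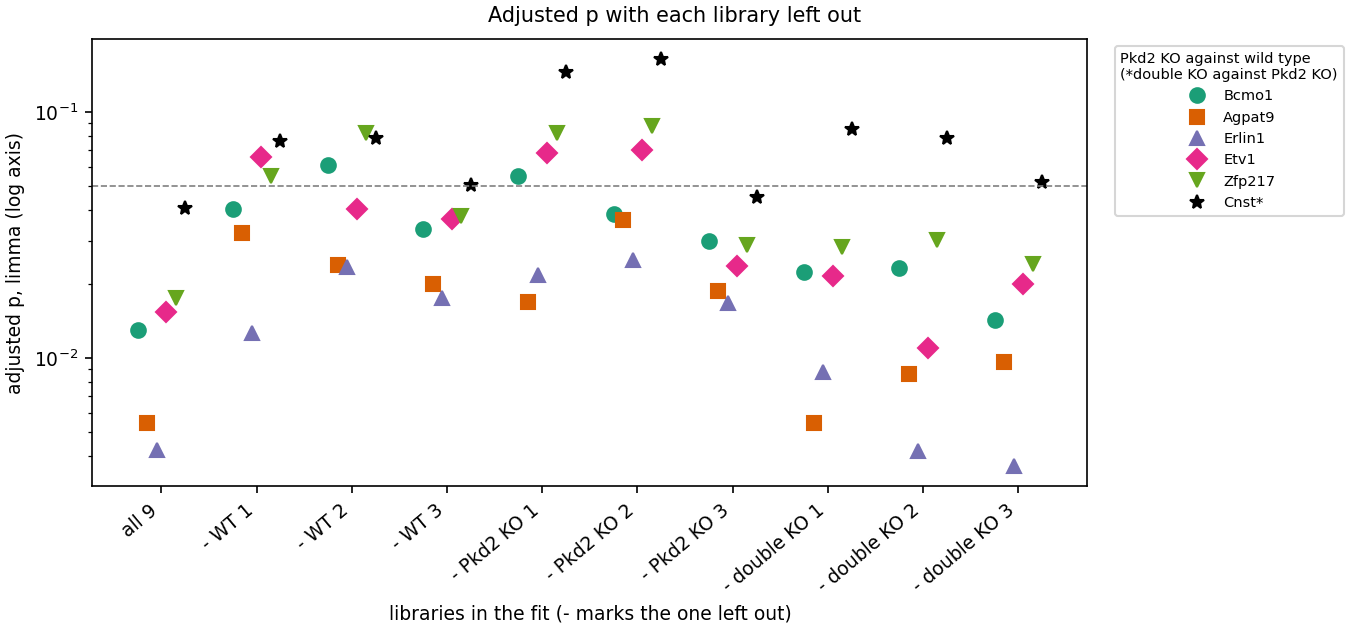
Benjamini-Hochberg adjusted p from limma (log axis) with all 9 libraries and with each left out in turn (horizontal axis), for Pkd2 knockout against wild type and, for Cnst (stars), double knockout against Pkd2 knockout; the dashed line marks 0.05. Agpat9 and Erlin1 stay below the line throughout, whereas Cnst is below it with all libraries and without Pkd2 knockout replicate 3.

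Divided by the exon length of each gene in GENCODE M21, the order of levels in wild type was Erlin1 (624 normalized counts per kb), Zfp217 (170), Agpat9 (155), Cnst (133), Etv1 (66.6) and Bcmo1 (30.7). In KO kidneys Agpat9 (314) stood above Zfp217 (227), and in DKO kidneys Zfp217 (232) and Cnst (230) were next to each other within their spread. In wild type Zfp217 and Agpat9 were neighbours whose means ± SD overlapped (SD 6.34 and 11.4). Erlin1 remained the highest and Bcmo1 the lowest per kb in each group.

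The 6 genes all lay inside the threshold of the comparison they came from, which is shown without a test. That threshold alone does not define them, and why the other genes inside it were not picked is not given. Of all tested genes, 0.0762% (12) were higher in DKO than in wild type by the same rule, and the other 6 were Slco4c1, Ifi202b and 4 genes with clone or model names (Gm26862, Gm15217, Gm1818 and 4930480K23Rik). In all 6 the DKO kidneys lay above all wild type ones, as in 9.1% of tested genes. Nothing is read from these shares, since the genes came from this comparison. Of the other 6, Gm26862 also passed as higher in KO against wild type, with means of 0.38, 49.9 and 103 in wild type, KO and DKO kidneys (limma adjusted p = 0.000514). As with Cnst, 4 did not pass in KO and passed as higher in DKO against KO. These were Gm15217 (593, 505 and 1344), 4930480K23Rik (126, 134 and 402), Gm1818 (23.5, 23.9 and 187) and Ifi202b, whose values stand with the neighbours of Cnst. Gm15217 and 4930480K23Rik lie on chromosome 14, which holds the edited gene Ift88, Gm1818 on 12 and Ifi202b on 1, as Cnst does. Sequence linked to the floxed Ift88 allele cannot be told apart from loss of Ift88 in the values of Gm15217 and 4930480K23Rik. With 1 library left out, Gm26862 and Gm15217 kept their calls in all 9 fits, and 4930480K23Rik and Gm1818 lost theirs without KO 1, KO 2, DKO 1 or DKO 2 (0.0518 to 0.126). Slco4c1 passed in neither of these comparisons. Etv1 (886 in wild type, 1468 in DKO) and Slco4c1 (444 and 856) were just inside the threshold, and Prcp (2687 and 3733) and Cds1 (2968 and 3942) just outside it.

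Marker levels of several cell types differed between the groups and are given beside these results, and their part in them was not tested. Over all tested genes limma passed 1.14% as higher and 1.25% as lower in KO, and 0.267% as lower in DKO against KO. Below 0.05 unadjusted, in either direction, were 18% in KO against wild type and 10.7% in DKO against KO. Mitosis genes were high in KO kidneys, with 10 of 12 higher than in wild type, and 5 of 12 were lower in DKO than in KO. Their summed level was 498 to 675 normalized counts in wild type, 2981 to 3708 in KO and 600 to 1344 in DKO kidneys. Thick ascending limb markers went down, 5 of 8 lower in KO, with sums of 362591 to 381245, 172933 to 210225 and 227553 to 297199. Proximal tubule markers, from the most abundant tubule segment, had 1 of 15 higher and 1 lower in KO, with sums of 1774910 to 1916280, 1677100 to 1838770 and 1500770 to 1785950. The one that rose, the monocarboxylate carrier Slc5a12, went from 11378 ± 1346 to 23436 ± 2373 in KO (log2 fold change 1.04; limma adjusted p = 0.0252) and stood at 21037 ± 6172 in DKO. That call was lost without WT 1, WT 2, KO 1 or KO 2 (adjusted p 0.0867 to 0.0999). The one that fell, the inositol oxygenase Miox, went from 44632 ± 423 to 28271 ± 1448 in KO (log2 fold change -0.66; limma adjusted p = 0.00904) and stood at 38583 ± 4129 in DKO. Its call was lost without WT 2 (0.0509). At an unadjusted p under 0.05, proximal tubule markers had 1 higher and 4 lower in KO, and DESeq2 called 5 of the 15. In DKO against KO limma passed 0 of them, with 5 higher and 0 lower unadjusted and 2 by DESeq2.

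Among cells outside the tubules, macrophage markers summed to 5085 to 5934 in wild type, 6131 to 8320 in KO and 4772 to 5739 in DKO kidneys. By limma 0 of 9 passed in KO against wild type, with 5 below 0.05 unadjusted, 0 by edgeR and 1 by DESeq2. Fibroblast and pericyte markers summed to 7882 to 11721, 10293 to 16729 and 6386 to 7998. By limma 0 of 8 passed, with 3 below 0.05 unadjusted, 0 by edgeR and 2 by DESeq2, and 1 of 8 was lower in DKO against KO. Of distal convoluted and connecting tubule markers 2 of 9 were lower in KO, and of intercalated cell markers 1 of 8. In 7 further lists 0 passed by limma or edgeR in KO. At an unadjusted p under 0.05, podocyte markers (8 tested) had 0 higher and 3 lower, and tubular injury markers (11) had 3 higher and 0 lower. DESeq2 called 2 in each. Principal cell (7) and endothelial (8) markers each had 1 lower unadjusted, and adipose or adrenal markers (7) had 1 higher. Lymphocyte (7) and erythroid (5) markers had 0, and DESeq2 called 0 in each of these lists. Over all tested genes, 18% were below 0.05 unadjusted in KO against wild type. In DKO against KO, limma and edgeR passed 0 erythroid, injury and macrophage markers. At an unadjusted p under 0.05, 5 of 5, 6 of 11 and 6 of 9 were lower and 0 higher, against 10.7% of all tested genes in either direction. DESeq2 called 3, 3 and 4. Erythroid sums were 325 to 1012 in wild type, 295 to 6174 in KO and 87.2 to 389 in DKO kidneys. No marker in the table was at 0 in all 9 libraries.

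None of the close relatives passed limma's test in KO against wild type or in DKO against KO. Bco2, which cleaves carotenoids off centre, was at 829 ± 203, 937 ± 312 and 894 ± 219 in wild type, KO and DKO kidneys. Of the acyltransferases with the same reaction as Agpat9, Agpat6 (now Gpat4) was at 3322, 3213 and 3389. The mitochondrial one, Gpam, was at 3953 ± 264, 5171 ± 874 and 5304 ± 364, with no overlap between KO and wild type, and did not pass by limma (log2 fold change 0.38; adjusted p = 0.134) though DESeq2 called it. Erlin2, the partner of Erlin1, was at 7813 ± 109, 7904 ± 557 and 7919 ± 63.4. Of the other PEA3 factors, Etv5 was at 651, 802 and 784 (log2 fold change in KO 0.30; limma adjusted p = 0.289) and Etv4, which is scarce, was at 21.7, 43.3 and 38.2. Of the partners of Zfp217 in its complexes, Kdm1a was at 1375, 1390 and 1332, Rcor1 at 3170, 3255 and 3467 and Ctbp2 at 1020, 955 and 1016. The connexins Gja1 (420, 393 and 433) and Gjb1 (2048, 2176 and 2449), are cargo of the kind that consortin sorts.

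The wider pathways were read from 6 lists that hold the 6 genes, each counted without its own. Over all tested genes in KO against wild type, limma passed 2.4% and 18% were below 0.05 unadjusted, in either direction. DESeq2 called 1172 of the 15740. Carotenoid and retinoid genes had 0 of 28 passing in KO against wild type, with 3 higher and 2 lower at an unadjusted p under 0.05, 0 by edgeR and 3 by DESeq2 (Stra6, Ttr and Dhrs3). Their most abundant member, the fatty acid carrier Cd36, was at 36628, 39000 and 30430. Glycerolipid synthesis and lipid droplet genes had 0 of 28, with 1 higher and 2 lower unadjusted, 0 by edgeR and 2 by DESeq2 (Gpam and Mogat1). Agpat3, which adds the following acyl chain, was at 19689, 19748 and 20045. The list medians were -0.01 and -0.01 on the log2 scale, against 0.00 over all tested genes.

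Of genes for degradation and sterol sensing at the endoplasmic reticulum, 1 of 28 passed, and it was lower: Insig1, which holds the sterol-regulated SREBP factors back. Insig1 measured 2253, 2414 and 2232 in wild type, 866, 905 and 1487 in KO and 1665, 1155 and 1079 in DKO kidneys. Both mutant groups lay below wild type. Its log2 fold change in KO was -1.13 ± 0.22 (limma adjusted p = 0.0342), lost as a call without WT 1, WT 2, WT 3, KO 1 or KO 2 (0.0729 to 0.124). Itpr1, a receptor that the erlins bind, was at 20282, 20032 and 19692. The list's median was 0.01.

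Of PEA3 factors and genes downstream of ERK, 1 of 24 passed, also lower: the immediate early gene Ier3. It measured 1984, 1884 and 1651 in wild type, 764, 1039 and 1049 in KO and 871, 1039 and 771 in DKO kidneys, with no overlap between wild type and mutants. In KO the log2 fold change was -0.96 ± 0.15 (limma adjusted p = 0.0167), lost as a call without WT 1 (0.0759), WT 2 (0.0786) or KO 2 (0.0501). Ccnd1, a cyclin of the G1 phase, was at 10567 ± 997, 15133 ± 481 and 10988 ± 2276 and did not pass (log2 fold change in KO 0.52; limma adjusted p = 0.0813; DESeq2 called it). The list's median in KO was 0.21, against 0.00 over all tested genes. At an unadjusted p under 0.05, 5 of the 24 were higher and 1 lower, against 18% of all tested genes in either direction.

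Gap junction and connexin sorting genes had 0 of 20 passing in KO, with 0 higher and 2 lower unadjusted, 0 by edgeR and 1 by DESeq2 (Cav1), and a median of 0.02. Gjb2 was the most abundant, at 6266 ± 1625, 7810 ± 310 and 6699 ± 1894. Corepressor subunits around Zfp217 had 0 of 19, with 0 higher and 1 lower unadjusted and 0 by edgeR and DESeq2, and a median of -0.03. Ctbp1 was at 5378, 5718 and 5498. For DKO against KO limma and edgeR called 0 genes in each of the 6 lists. DESeq2 called Rbp4 and Ttr in the retinoid list and Ccnd1 in the ERK list. At an unadjusted p under 0.05 there were 3 higher and 1 lower retinoid genes, 1 higher glycerolipid gene, 1 higher gap junction gene, 4 lower ERK genes and 0 in the other 2 lists. Over all tested genes in DKO against KO, limma passed 0.394% and 10.7% were below 0.05 unadjusted, in either direction. DESeq2 called 472 of the 15740.

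Over the 9 libraries the 5 genes raised in KO followed each other, with Pearson correlations of log2 values from 0.875 to 0.963. Cnst followed them less, at 0.427 to 0.596. These correlations are descriptions, since the 9 points share the same 3 groups and the genes were chosen for their levels in 2 of them. Among 12204 named genes with a mean of at least 50, those most like Bcmo1 were Sgpl1 (0.977), Flcn (0.972) and Dnajc13 (0.963), and most like Agpat9 were Wdfy3 (0.977), Eps15 (0.970) and Mfsd11 (0.961). Erlin1 was closest to Tagap1 (0.978), Atxn1l (0.966) and Zfp217 (0.963), Etv1 to Acat3 (0.958), Zfp217 (0.944) and Bid (0.939), and Zfp217 to Atxn1l (0.983), Tpr (0.969) and Kdm2a (0.965). Cnst was closest to Sccpdh (0.979), F11r (0.960) and Zfp568 (0.953). Of these genes, Wdfy3 lies 3 tested genes from Agpat9 on chromosome 5, towards Pkd2. Sccpdh and F11r lie 1 and 58 tested genes from Cnst on chromosome 1. Shared position cannot be told apart from shared regulation in these correlations.

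The 6 genes lie on 6 chromosomes: Agpat9 on 5, Bcmo1 on 8, Erlin1 on 19, Etv1 on 12, Zfp217 on 2 and Cnst on 1. Positions in the gene order came from RefSeq, which placed 96.3% of tested genes. Of the 20 nearest tested genes of each, limma called 0 in KO against wild type for Bcmo1 (3 unadjusted, 0 by edgeR, 2 by DESeq2), Etv1 (4, 1 and 1) and Cnst (3, 0 and 2). It called 1 each for Agpat9 (6, 1 and 3), Erlin1 (7, 1 and 5) and Zfp217 (3, 1 and 1). Over all tested genes, limma called 2.4%, and 18% were below 0.05 unadjusted. DESeq2 called 1172 of the 15740. The one that limma called near Erlin1 was Abcc2, a drug and anion exporter, at 12895 ± 1884 in wild type and 19963 ± 2414 in KO (log2 fold change 0.63; limma adjusted p = 0.0403). Of the fits that left out 1 library, it kept its call in those without DKO 1 or DKO 3 (adjusted p otherwise 0.0552 to 0.105). The one near Zfp217 was the mitotic kinase Aurka, at 38.8 ± 7.85, 111 ± 20.3 and 55.0 ± 17.7 (log2 fold change 1.50; limma adjusted p = 0.0340), a call lost without WT 1, WT 2, KO 1, KO 2 or KO 3 (0.0514 to 0.127).

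Agpat9 shares chromosome 5 with Pkd2, the edited gene, with 14 tested genes between them. Of these, 2 passed in KO against wild type, Cds1 next to Agpat9 and Hsd17b11 near Pkd2, against 2.4% of all tested genes in either direction. In 6 of the 14 the KO and wild type kidneys did not overlap, where 25.2% of all tested genes did not overlap. In 4 of the 14 the KO kidneys were higher without overlap, against 12.4% of all tested genes. In 2 of the 14 both mutant groups were higher than wild type without overlap, a pattern not counted over all tested genes, so nothing is read from it. The median log2 fold change of the 14 in KO was 0.20, against 0.00 over all tested genes. Cds1, a CDP-diacylglycerol synthase, was at 2968 ± 31.2, 3732 ± 111 and 3942 ± 257 (log2 fold change in KO 0.33 ± 0.06; limma adjusted p = 0.0355), a call lost without any 1 of the 3 wild type mice, KO 1, KO 2 or DKO 1 (0.0561 to 0.146). Hsd17b11, a lipid droplet dehydrogenase, was at 29454 ± 1810, 58263 ± 6796 and 33620 ± 7431 (0.98 ± 0.16; limma adjusted p = 0.0173), a call lost without WT 1 (0.0746), WT 2 (0.0653) or KO 1 (0.0741). Unlike Agpat9, its DKO kidneys lay below its KO kidneys. Wdfy3, at 9333 ± 538, 11285 ± 333 and 11830 ± 649, did not pass (adjusted p = 0.0791). Both mutant groups carry the floxed Pkd2 allele, so a share of sequence linked to it cannot be told apart from loss of Pkd2 in the values of Agpat9.

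**Figure D4:**
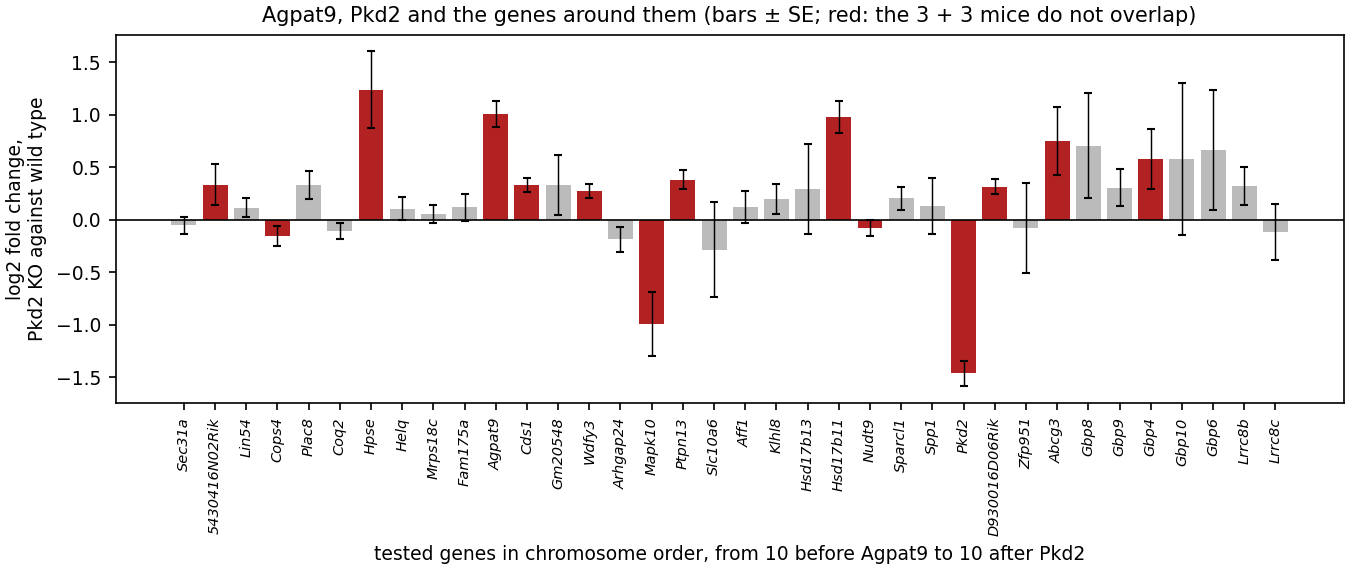
Log2 fold change of Pkd2 knockout against wild type (vertical axis, limma estimate ± SE) for tested genes in chromosome order from 10 before Agpat9 to 10 after Pkd2; red bars mark genes whose 3 and 3 mice do not overlap. Agpat9 stands at 1.01 and Pkd2 at -1.46, with Cds1 at 0.33 and Hsd17b11 at 0.98 between them.

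Next to Cnst on chromosome 1, Sccpdh and Ahctf1 had the same pattern as Cnst. Sccpdh, a dehydrogenase-like protein of lipid droplets, measured 929, 959 and 1011 in wild type, 873, 910 and 1040 in KO and 1349, 2135 and 1428 in DKO kidneys. Ahctf1, a nucleoporin, measured 3788, 3533 and 4031 in wild type, 4424, 4518 and 3234 in KO and 5557, 8011 and 5947 in DKO kidneys. In all 3 adjacent genes the DKO kidneys lay above every other kidney, and DKO 2 was the highest. The log2 fold changes of DKO against KO were 0.77 ± 0.16 for Sccpdh (limma adjusted p = 0.0916) and 0.68 ± 0.16 for Ahctf1 (0.130), so neither passed, though DESeq2 called both. The genes on the outer flanks had smaller fold changes that did not pass, Tfb2m of 0.19 (0.634) and Cdc42bpa of -0.04 (0.919).

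Within 10 tested genes on either side of Cnst, 4 of 20 were higher in DKO than in KO without overlap, where 7.4% of all tested genes were, and the median log2 fold change was 0.03. Within 30 genes on either side it was 6 of 60, with a median of -0.04. In either direction 15 of these 60 did not overlap, against 15.2% of all tested genes. Among the nearer 20, limma passed 0, with 5 at an unadjusted p under 0.05, 0 by edgeR and 2 by DESeq2. Farther off on the same chromosome, at 22 tested genes, Ifi202b measured 0, 0 and 2.18 in wild type, 1.99, 0 and 0.97 in KO and 18.3, 53.5 and 37.4 in DKO kidneys. Ifi202b is an interferon-inducible gene whose expression is known to differ between inbred mouse strains. Ifi202b passed as higher in DKO against KO (limma adjusted p = 0.0409), a call lost in 8 of the 9 fits that left out 1 library each, all but the one without WT 3 (up to 0.166). Genes beside it went the other way in that comparison: Ifi203 (log2 fold change -0.71), Ifi205 (-2.70), Ifi204 (-1.12), Mndal (-1.83) and Pydc4 (-2.42). None of them passed (limma adjusted p from 0.266 to 0.507). Whether the DKO mice carry other sequence around Cnst was not tested, and the DKO mice's shared name prefix cannot be told apart from loss of Ift88 in the values of Cnst. On chromosome 14, which holds Ift88, 17 of 515 tested genes (3.3%) passed in DKO against KO in either direction. On chromosome 1 there were 6 of 884 (0.679%), against 0.394% over all chromosomes. These 6 include Cnst itself and Ifi202b, which was named after its values were seen. The share for chromosome 1 is therefore not independent of the choice, and nothing is read from it.

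**Figure D5:**
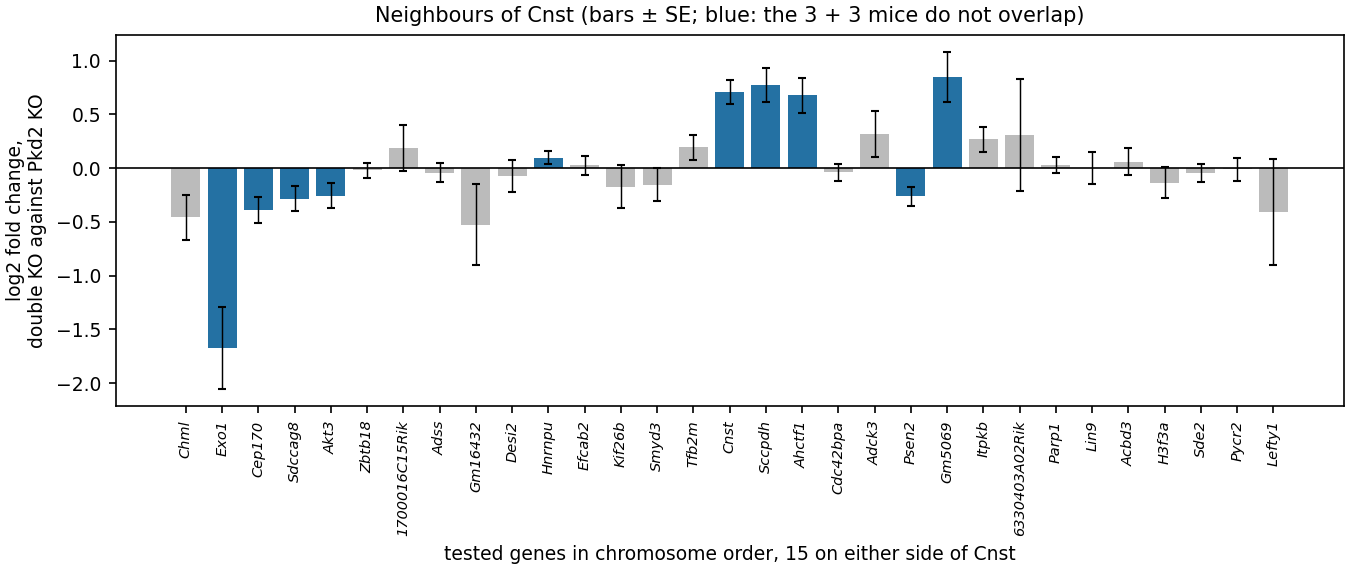
Log2 fold change of double knockout against Pkd2 knockout (vertical axis, limma estimate ± SE) for tested genes in chromosome order, 15 on either side of Cnst; blue bars mark genes whose 3 and 3 mice do not overlap. Cnst, Sccpdh and Ahctf1 stand side by side at 0.71, 0.77 and 0.68, between Tfb2m at 0.19 and Cdc42bpa at -0.04.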

How the data were processed

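Poly(A) RNA libraries from 9 kidneys were used, with groups and replicate numbers from the sample titles. Values are normalized counts for each gene as deposited, a signal the authors made with STAR 2.5.0, HTSeq 0.6.1 and DESeq2, per the submitters' processing notes. Build, annotation and strand use: not given in the sources used here. Reads of overlapping or antisense partners may therefore be mixed. The table had 0 columns of other samples, and 25 row names turned into dates were not used. Each deposited column is a whole multiple of 1 value (0.906 to 1.13, the value of 1 read). Division by it gave whole reads for 100% of values (tolerance 0.001), on which edgeR 4.0.16 and DESeq2 1.42.0 were run as alternatives. In WT 1 and KO 1 that value is within 0.01 of 1, so edgeR and limma were also run on the other 7 libraries, a choice made after seeing the data.

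Groups were tested with limma 3.58.1 in R 4.3.3, with an intensity trend, 1 mean per group and no block, on values transformed as log2(normalized count + 1), over genes with a mean of at least 10. A gene passed at a two-sided Benjamini-Hochberg adjusted p under 0.05 over all 15740. The fit takes the mice as independent, and the procedure was tested on simulated data. The 6 genes, their relatives and the gene lists (6 pathway and 14 marker lists) were chosen with earlier results of these data known. Named were the 6 genes, the targets, set relatives, passing members of the pathway lists, the most abundant member of each such list that did not pass, the 3 most correlated genes and passing neighbours. Marker lists are given as counts and sums. Other genes named (Slc5a12 and Miox, the genes next to Cnst, Wdfy3 and Ifi202b, those inside or near the threshold in DKO against wild type and those called by DESeq2) were picked after their values were seen. Rpe65 was not analysed here. Promoters came from RefSeq (GRCm38.p6), and exon lengths from GENCODE M21. Alternatives, 25 settings in all, changed pseudocount, filter, scaling, trend, weights, block, libraries and tool.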

Additional observations from a re-analysis of the deposited data

Results flagged for a closer look

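Cnst is set apart because its 2 mutant groups, which both lack Pkd2, differed when that difference itself was tested. The log2 fold change of double knockout against Pkd2 knockout was 0.71 (limma adjusted p = 0.0409, all 3 double knockout kidneys above all 3 Pkd2 knockout kidneys). The double knockout mice are those whose high values picked Cnst, so this is not independent of the choice. The call held without KO 3 and was lost without any other single library, with adjusted p from 0.0504 to 0.164.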

How the results depend on the processing

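For KO against wild type, the count of 5 of the 6 genes ranged from 2 to 5 with each library left out, was 0 by edgeR and 0 by limma on 7 libraries (log2 fold changes of the 5 genes stayed positive), and was 2 with a log2 fold change of at least 1. For DKO against KO, the count of 1 (Cnst) became 0 without the intensity trend, 0 with only the groups compared, 0 to 1 with each library left out, 0 and 0 on 7 libraries and 0 at a log2 fold change of at least 1. Where 1 library left an arm with fewer mice, its spread was taken from all groups.

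With the replicate number as a block, 0 of the 6 genes passed in DKO against KO (Cnst adjusted p = 0.0916), and the genes called fell to 217 (KO against wild type), 15 (DKO against KO) and 20 (DKO against wild type). Deviations of same-numbered mice correlated at -0.142 to 0.215, over 0.1 in 2 of 9 pairs. Those of differently numbered mice correlated at -0.230 to 0.173, over 0.1 in 2 of 18 pairs. What the replicate numbers stand for is not given, and whether same-numbered mice share a batch was not tested.

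Counts over all genes moved as follows. KO against wild type, 377: 3222 with array weights, 1172 by DESeq2, 70 to 436 with a library left out, 517 without both WT 3 and KO 3, 11 (edgeR) and 13 (limma) on 7 libraries. DKO against KO, 62 (20 higher, 42 lower): 31 with quantile normalization (15 higher, 16 lower), 614 with weights, 26 with only the groups compared, 472 by DESeq2, 8 to 154 with a library left out, 308 without both WT 3 and KO 3, 10 and 11 on 7 libraries. DKO against wild type, 36: 295 with weights, 392 by DESeq2, 18 to 58 with a library left out, 111 without both, 10 and 11 on 7 libraries. The causes were not tested.

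Sign changes occurred in DKO against KO in genes that did not pass and lay near 0. Etv1 became -0.0018 (median-ratio), -0.0034 (quantile), -0.0043 (TMM) and -0.061 (weights), and Bcmo1 0.066 (quantile) and 0.074 (weights). Agpat9 became -0.034 (edgeR) and -0.039 (limma) on 7 libraries. With libraries left out, values ran from -0.067 to 0.10 for Etv1, -0.13 to 0.074 for Bcmo1, -0.039 to 0.16 for Agpat9, -0.11 to 0.048 for Erlin1 and -0.00028 to 0.054 for Zfp217. The planned limma fit on libraries with recovered reads was not run apart, since reads were recovered in all 9. Depth was not varied. Bcmo1, the least abundant of the 6 (lowest library 68.6 normalized counts), also had the largest SE (0.17 on the log2 scale).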
